A study of Mus musculus with 2 samples.

Results

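The cells described here are the kept cells with the highest levels of 7 genes known to be induced by low oxygen, in single-cell RNA sequencing of endothelial cells from mouse tumours. Of 6194 deposited cells, the 4224 with at least 2000 detected genes were kept. Each kept cell was scored by the mean of its deposited natural-log values of Vegfa, Bnip3, Egln3, Slc2a1, Hilpda, Ero1l and Vldlr, and the highest-scoring 10% over both libraries were selected. This gave 422 hypoxia-high cells, 155 of the control library and 267 of the NF2 KO library, and 3802 other kept cells. The cells were thus chosen by the measured values of these 7 genes, whose levels are given as a description and were not tested.

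The series holds 1 library labelled control and 1 labelled NF2 KO, both of CD31+ endothelial cells sorted by flow cytometry from tumours of adult C57BL/6 mice. CD31 is a surface protein of endothelial cells, and Nf2 encodes merlin, a membrane-associated protein upstream of the Hippo kinases. The sources used here give no tumour type, number of mice, deleted exons or promoter that drove the deletion. Each library holds cells of 2 runs, whose meaning the labels do not state, so a run is a part of 1 sample and not a replicate. With 1 library per group no test between conditions was possible. Levels are counts of unique molecular identifiers (UMIs, which tag single RNA molecules) summed over cells and given as CPM, the count per 1000000 UMIs of the same cells. The 95% intervals are exact and hold counting error alone, so they leave out any spread between mice.

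Cells sense oxygen through prolyl hydroxylases, which mark the alpha subunits of hypoxia-inducible factor (HIF) for degradation by the VHL ubiquitin ligase. When oxygen is low, HIF accumulates, pairs with Arnt and binds short DNA motifs near genes of glucose uptake, glycolysis, angiogenesis and mitophagy. Tumour vessels are often poorly perfused, and endothelial cells in them are known to express HIF target genes.

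The label was checked against markers. Oxygen itself was not measured. The 16 endothelial markers summed to 8813 CPM in the hypoxia-high cells of the control library and to 9992 CPM in the other kept cells, and in the NF2 KO library to 5638 and 7616 CPM. Pecam1, the gene of CD31, was at 1277 CPM against 1111 CPM in the control library and at 1111 against 1053 CPM in the NF2 KO library. Of the 16 markers, 1 was called higher in the hypoxia-high cells (Erg) and 6 were called lower (Kdr, Tek, Cldn5, Eng, Mmrn2 and Sox18), by the rule given with the genes below. These shares of 6.25% and 37.5% stand beside 7.28% and 11.2% of all genes under the same rule. Lists of 12 monocyte or macrophage, 8 neutrophil, 10 lymphocyte, 6 erythroid, 6 platelet, 8 pericyte or smooth muscle, 8 fibroblast and 5 measured melanocytic markers summed to between 0.538 and 89.1 CPM in the hypoxia-high cells of either library. The 8 fibroblast markers summed to 38.5 against 17.9 CPM in the control library and to 39.2 against 17.6 CPM in the NF2 KO library, and the 6 platelet markers to 41.5 against 14.3 CPM and to 10.7 against 14.5 CPM. The 9 measured epithelial or carcinoma markers summed to 22.6 CPM against 5.56 CPM in the control library and to 69.5 against 30.5 CPM in the NF2 KO library. Cldn4, a claudin, made up 21 and 65.8 CPM of the sums in the hypoxia-high cells, where Epcam, Cdh1 and Krt7 were at 0. The part of such RNA in the results was not tested. Cells with UMIs of at least 3 different markers of another cell type made up 9.24% of the hypoxia-high cells and 9.68% of the other kept cells, and were left in. Cells among the 5% of each library with the highest simulated-doublet scores made up 1.42% and 8.07%, and were also left in.

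The depth of the hypoxia-high cells was similar to that of the other kept cells. Their median was 21090 UMIs per cell against 18691 in the control library, and 17948 against 17833 in the NF2 KO library. The kept share of cells differed by run: 748 of 2032 cells of control run 1 passed the minimum of 2000 genes, against 656 of 794 in control run 2, 1148 of 1328 in NF2 KO run 1 and 1672 of 2040 in run 2. The cell barcodes showed 3 sequences that occurred in 2 runs or libraries. Nf2 was at 10.5 CPM (95% interval 7.47 to 14.4) in the hypoxia-high cells of the control library and at 10.7 CPM (8.04 to 13.9) in those of the NF2 KO library. In the other kept cells it was at 23.0 and 21.3 CPM. The level of Nf2 therefore did not separate the libraries, and since 3′ counting reads the end of the transcript, which a deletion can leave in place, it does not check the labels.

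Hypoxia-high cells took a higher share of each control run than of each NF2 KO run. They made up 11.04% of the kept cells of the control library (95% interval 9.45 to 12.8) and 9.47% of those of the NF2 KO library (8.41 to 10.6). The intervals overlapped, which does not show that the shares are equal. By run the share was 11.2% and 10.8% in the control library and 8.80% and 9.93% in the NF2 KO library. The score had no gap at the threshold: the lowest hypoxia-high cell scored 1.02 and the highest other cell also 1.02. Within 0.05 of the threshold lay 48 hypoxia-high and 35 other cells. The median score was 1.36 in the hypoxia-high cells and 0.240 in the others, of which 293 (7.71%) scored 0. The selected cells are thus a range of the score, and whether they form a separate type was not tested.

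**Figure D1:**
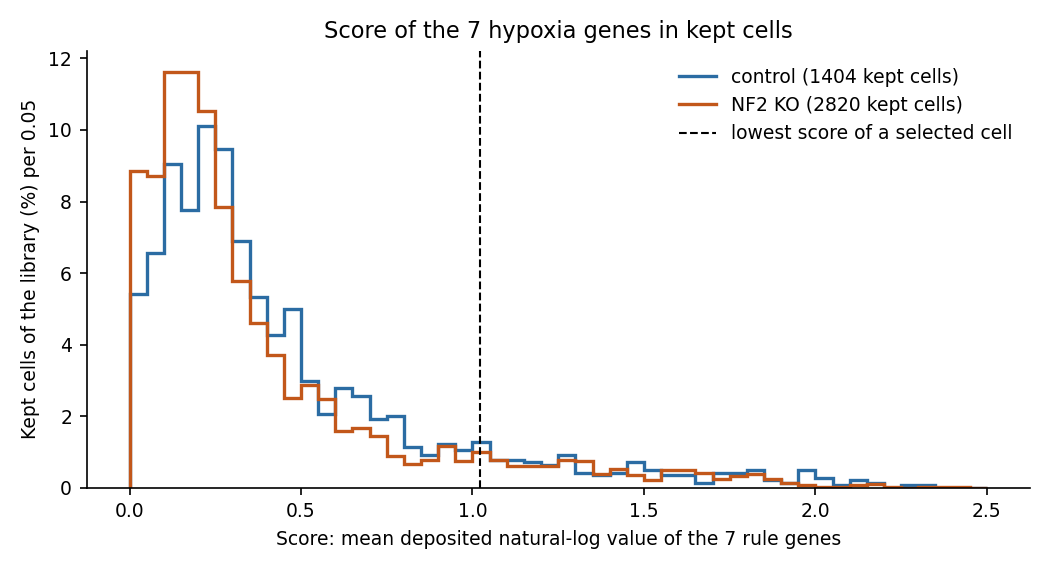
Distribution of the score, the mean deposited natural-log value of the 7 rule genes (horizontal axis), as the percent of each library's kept cells per 0.05 of score (vertical axis), with 1404 control and 2820 NF2 KO cells. The dashed line is the lowest score of a hypoxia-high cell (1.02), and both libraries run through it without a gap.

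Most hypoxia-high cells expressed most of the 7 genes of the score. All 7 were detected in 205 hypoxia-high cells (48.6%) and at least 5 in 420 (99.5%), while 660 other kept cells (17.4%) had at least 5. Leaving out any 1 gene and selecting 10% again kept between 388 cells (91.9%, without Hilpda) and 404 cells (95.7%, without Vegfa) of the 422. When each cell was first thinned to 5000 UMIs, 365 of the 422 (86.5%) were selected again.

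Vegfa, which encodes the main angiogenic growth factor, was at 121 and 82.5 CPM in the hypoxia-high cells of control runs 1 and 2 and at 130 and 149 CPM in those of the NF2 KO runs. In the other kept cells it was between 3.5 and 6.34 CPM in the 4 runs. Vegfa had the largest ratio of the 7, 25.2-fold in the control and 25.4-fold in the NF2 KO library. Slc2a1, the glucose transporter GLUT1 (chr4:119108711-119137983, plus strand, GRCm38), was at 682 and 851 CPM in the control runs and 643 and 657 CPM in the NF2 KO runs, against 87.4 to 116 CPM in the others. Bnip3, a mitochondrial protein that marks mitochondria for autophagy, was at 384 and 472 CPM in the control library and 584 and 585 CPM in the NF2 KO runs, against 41.8 to 65.4 CPM. The oxygen sensor Egln3, a prolyl hydroxylase that is itself a HIF target, was at 456 and 406 CPM in the control library and 413 and 374 CPM in the NF2 KO runs, against 41.2 to 57.6 CPM. For all 7 genes of the score every run of the hypoxia-high cells lay above every run of the other kept cells. The cells were selected by the mean of these genes, so nothing is read from this. Hilpda, which inhibits the breakdown of lipid droplets, was at 762 against 132 CPM in the control library (5.77-fold) and at 605 against 69.2 CPM in the NF2 KO library (8.75-fold). Ero1l, an oxidase of the endoplasmic reticulum that helps form disulphide bonds, was at 884 against 102 CPM and at 686 against 79.4 CPM. Vldlr, a lipoprotein receptor, was at 82.1 against 6.38 CPM (12.9-fold) and at 94.7 against 4.12 CPM (23.0-fold).

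Other HIF-induced genes, none of them in the score, were higher in the same cells. The 47 genes of this list summed to 9958 CPM in the hypoxia-high cells of the control library and 3563 CPM in the other kept cells, and in the NF2 KO library to 10822 and 3856 CPM. Per cell, the 5th percentile of the summed level was 6103 CPM in hypoxia-high control cells, below the 95th percentile of the other control cells (6423 CPM). In the NF2 KO library it was 6033 CPM, below the 90th percentile of the other cells (6392 CPM), so the 2 groups of cells overlapped. Only 0.320% of the other control cells and 1.253% of the other NF2 KO cells exceeded the median hypoxia-high cell of their library. A gene was called higher or lower where the CPM ratio was at least 1.5-fold in the same direction in both libraries, its 95% interval excluded 1 and the mean CPM of the compared groups of cells reached 20 in each library. A gene can reach this mean through either group of cells alone. Of the 47 genes, 32 passed the minimum and 28 of these were called higher and none lower, while of all 5424 genes that passed, 395 (7.28%) were called higher and 610 (11.2%) lower. Since the score and these genes come from the same cells, nothing is read from that difference. The median log2 ratio of the 32 genes was 1.57 in the control and 1.54 in the NF2 KO library, and that of all genes −0.11 and −0.15.

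Of the secreted factors in the list, Adm, which encodes the vasodilator and angiogenic peptide adrenomedullin, was at 1957 and 1700 CPM in the hypoxia-high cells of the control runs and at 2119 and 2174 CPM in those of the NF2 KO runs. In the other kept cells it was between 397 and 622 CPM, so no run overlapped, and the ratio was 4.43 (4.30 to 4.57) in the control and 3.78 (3.70 to 3.87) in the NF2 KO library. Angptl4, an inhibitor of lipoprotein lipase, was 2.52-fold and 1.67-fold higher, at 804 against 320 and 643 against 385 CPM. Among enzymes of collagen maturation, the lysyl hydroxylase Plod2 was at 153 against 24.8 CPM in the control library (6.18-fold) and at 164 against 29.9 CPM in the NF2 KO library (5.51-fold), and the prolyl hydroxylase subunits P4ha1 and P4ha2 were between 2.18-fold and 3.95-fold higher.

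Of the intracellular members, Ndrg1, a stress-response gene, was 4.61-fold and 4.29-fold higher, at 897 and 802 CPM in the control runs and 781 and 764 CPM in the NF2 KO runs against 177 to 186 CPM. Egln1, the main oxygen-sensing prolyl hydroxylase, was 3.5-fold and 3.47-fold higher. Its level differed between the control runs, with 440 and 213 CPM in hypoxia-high cells and 126 and 61.1 CPM in the others, so that hypoxia-high cells lay above the others within each run. Mxi1, a repressor of Myc activity, was 5.19-fold and 6.62-fold higher, and the adenylate kinase Ak4 of mitochondria was 7.79-fold and 5.77-fold higher. Cited2, which competes with HIF for its coactivators, was at 218 against 37.2 CPM and at 331 against 79.4 CPM. Hmox1, which degrades haem, was at 287 against 63.1 CPM and at 487 against 81.3 CPM. Selenbp1 and the nuclear receptor Rora had the largest ratios among the 28 genes, with 21.4-fold and 12.6-fold in the control and 15.6-fold and 11.2-fold in the NF2 KO library. Of the genes that missed the call, Klf7 had ratios of 0.94 and 0.95, Stc1 of 0.90 and 0.73, Ddit4 of 1.14 and 1.36 and Bhlhe40 of 1.38 and 1.66. Car9, the carbonic anhydrase often used to mark hypoxia in tumours, was below the minimum in the NF2 KO library, with 44.2 against 3.42 CPM in the control library and 21.4 against 3.43 CPM in the NF2 KO library.

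Most genes of glycolysis and lactate export that passed the minimum were higher. The 21 genes of the list summed to 15920 against 7660 CPM in the control library and to 16470 against 8235 CPM in the NF2 KO library. Of 14 that passed the minimum, 12 (85.7%) were called higher and none lower, beside 7.28% and 11.2% of all genes. The median log2 ratios were 1.13 and 1.10. Hexokinase Hk1 was 2.53-fold and 2.71-fold higher, triosephosphate isomerase Tpi1 2.77-fold and 2.42-fold, and phosphoglycerate kinase Pgk1 2.59-fold and 2.45-fold. Gapdh was at 4156 and 4054 CPM in the hypoxia-high cells of the control runs and at 4471 and 4529 CPM in those of the NF2 KO runs, against 1880 to 2148 CPM in the others. Ldha, the lactate dehydrogenase subunit that favours lactate, was at 1535, 1561, 1527 and 1505 CPM in the 4 runs against 733 to 902 CPM, a ratio of 1.96 in the control and 1.68 in the NF2 KO library. Slc16a3, the lactate exporter MCT4, had the largest ratio of the list with 3.52 in the control and 2.89 in the NF2 KO library. The 2 genes that missed the call were the pyruvate kinase Pkm, with ratios of 1.47 and 1.44, and the kinase Pdk1, which holds pyruvate back from mitochondria, with 1.29 and 1.37. Several of these genes have processed pseudogenes of near-identical sequence, and the sources used here do not say how shared reads were counted, so their exact levels are uncertain.

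**Figure D2:**
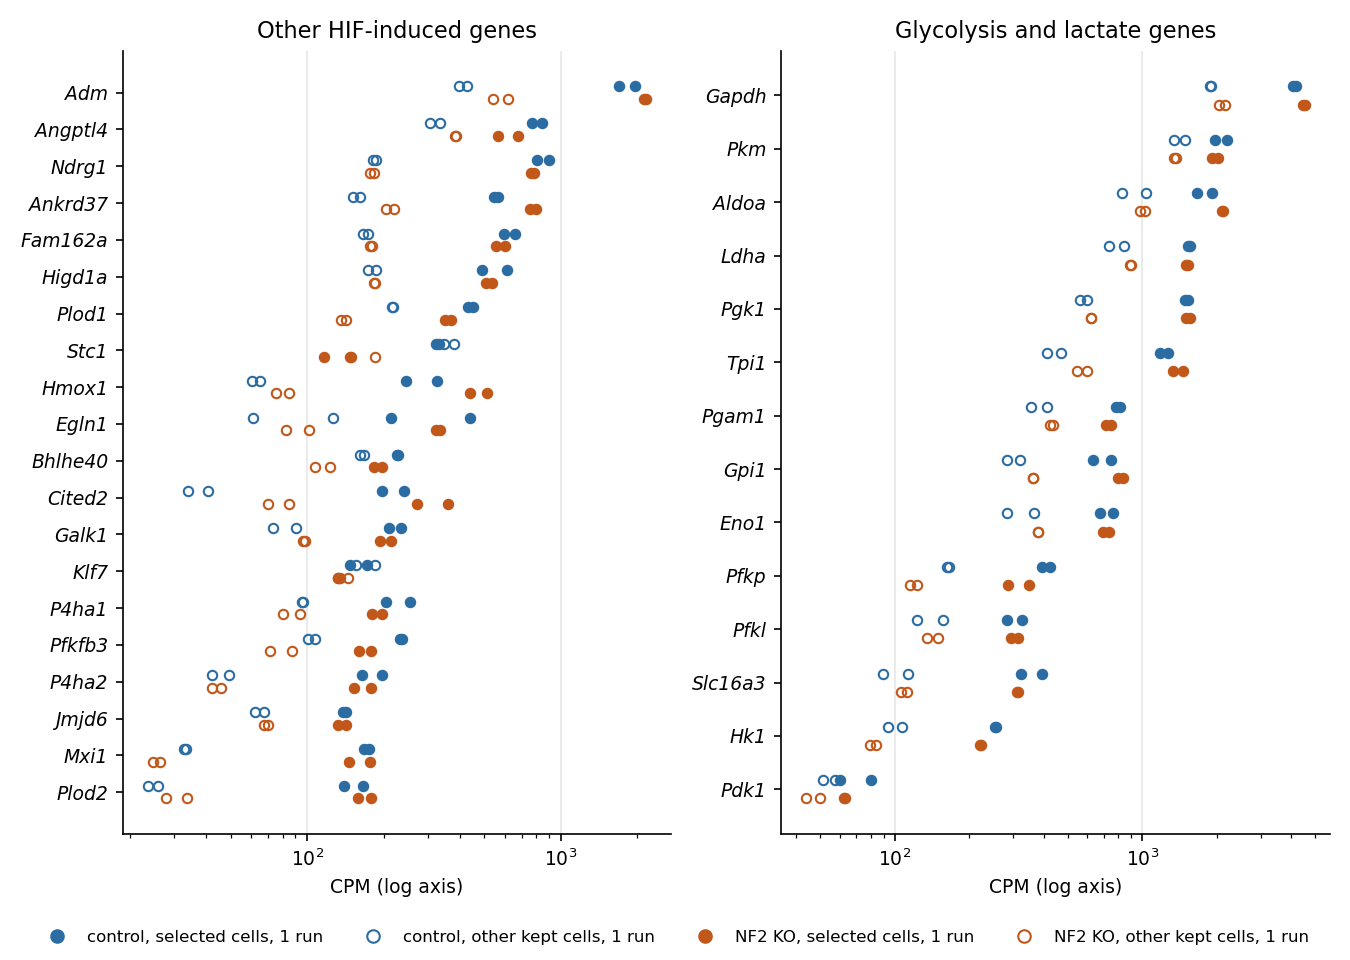
CPM on a log axis of 20 of the most abundant HIF-induced genes outside the score (left) and the 14 glycolysis and lactate genes that passed the minimum (right), with 1 point per run. Filled points are hypoxia-high (selected) cells and open points other kept cells; for most genes the filled points of both libraries lie together to the right of the open ones, as for Adm (1700 to 2174 against 397 to 622 CPM).

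HIF binds DNA at a core of 5 bases, ACGTG or GCGTG. The promoters of Bnip3 and Slc2a1, both genes of the score, and of Ldha are printed because they hold such letters, and that of Vldlr because it holds none in spite of its high ratio. Each runs from 250 bases before the RefSeq transcript start to the base before it, 5′ to 3′ on the gene's strand, in GRCm38.p6. Capitals mark a match of either motif on either strand, so the reverse complement of GCGTG appears as CACGC. A match of ACGTG on both strands at once gives a run of 6 capitals and was counted once for each strand. The windows are chr7:138909507-138909756 on the minus strand for Bnip3, chr4:119108495-119108744 on the plus strand for Slc2a1, chr7:46845554-46845803 on the plus strand for Ldha and chr19:27216234-27216483 on the plus strand for Vldlr, each the upstream flank of the first-listed transcript start.
Bnip3: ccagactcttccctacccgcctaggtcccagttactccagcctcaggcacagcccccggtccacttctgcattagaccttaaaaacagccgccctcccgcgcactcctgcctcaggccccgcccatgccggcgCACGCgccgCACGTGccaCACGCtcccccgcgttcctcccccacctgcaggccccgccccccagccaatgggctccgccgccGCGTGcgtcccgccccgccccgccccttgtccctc
Slc2a1: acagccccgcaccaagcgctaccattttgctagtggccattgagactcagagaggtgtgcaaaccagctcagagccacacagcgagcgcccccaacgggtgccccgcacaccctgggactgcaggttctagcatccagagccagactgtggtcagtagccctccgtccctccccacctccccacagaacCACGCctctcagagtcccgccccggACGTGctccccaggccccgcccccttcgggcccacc
Ldha: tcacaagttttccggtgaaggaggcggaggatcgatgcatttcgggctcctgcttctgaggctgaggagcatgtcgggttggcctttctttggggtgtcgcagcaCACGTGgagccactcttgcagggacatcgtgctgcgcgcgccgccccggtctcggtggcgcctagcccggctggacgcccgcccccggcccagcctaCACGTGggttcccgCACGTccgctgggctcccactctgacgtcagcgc
Vldlr: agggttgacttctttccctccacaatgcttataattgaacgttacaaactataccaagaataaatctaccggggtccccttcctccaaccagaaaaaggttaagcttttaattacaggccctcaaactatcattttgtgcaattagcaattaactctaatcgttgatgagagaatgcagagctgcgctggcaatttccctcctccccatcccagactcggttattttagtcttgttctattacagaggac

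The Bnip3 window held 2 matches of ACGTG, which are the 2 strands of 1 run of 6 capitals, and 3 of GCGTG. The Slc2a1 window held 1 match of each. The Ldha window held 5 matches of ACGTG, of which 4 are on both strands of its 2 runs of 6 capitals. The Vldlr window held no match. Over all listed starts, ACGTG was found for 6 of the 7 genes of the score (85.7%), for 19 of the 35 HIF-induced genes with a promoter in the table (54.3%) and for 9 of the 20 such glycolysis genes (45%). It was found for 1 of 13 interferon response genes (7.69%) and for 3269 of 14216 genes of the files (23.0%). These counts take a match at any listed start. For Vegfa and Hilpda the first-listed window held none and only another listed start held ACGTG. Counted per window, ACGTG was in 60% for the genes of the score, 44.7% for the HIF-induced genes and 34.4% for the glycolysis genes. The window share was 7.14% for the interferon response genes and 19.8% for the genes of the files. Of all 32851 windows in the table, 16.6% held ACGTG and 28.2% GCGTG. A match is a description of the letters and not of a bound site.

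Of the HIF subunits, Hif1a was near the level of the other kept cells and Epas1 was lower. Hif1a, the alpha subunit that is regulated mainly by protein stability, had a ratio of 1.13 in both libraries, at 392 and 377 CPM in hypoxia-high cells of the control runs and 383 and 407 CPM in those of the NF2 KO runs. Epas1, which encodes the second alpha subunit HIF-2 alpha and is abundant in endothelium, was called lower: 113 and 95.9 CPM against 243 and 198 CPM in the control runs, and 92.9 and 84.0 against 185 and 194 CPM in the NF2 KO runs. That is 2.11-fold lower (1.91 to 2.35) in the control and 2.20-fold lower (2.0 to 2.42) in the NF2 KO library, with no overlap of runs. Vhl, the substrate receptor of the ubiquitin ligase, was 2.66-fold and 3.39-fold higher, and Siah2, a ubiquitin ligase for prolyl hydroxylases, 1.84-fold and 1.79-fold higher. Those were the 3 called genes among 9 that passed the minimum, 22.2% higher and 11.1% lower beside 7.28% and 11.2% of all genes.

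Among 10 mitophagy and autophagy genes 1 (10%) was called higher, near the 7.28% of all genes. This was Bnip3l, a receptor that recruits autophagosomes to mitochondria. It was at 491 against 195 CPM in the control library and 494 against 189 CPM in the NF2 KO library. The autophagosome genes Map1lc3b and Gabarap had ratios between 1.08 and 1.36. Of 16 genes of the integrated stress and unfolded protein responses, 3 (18.8%) were called higher (Trib3, Ddit3 and Dnajb9) and none lower, beside 7.28% and 11.2% of all genes. The chaperones Hspa5 and Hsp90b1 had ratios of 1.24 and 1.33 in the control library and 0.92 and 1.0 in the NF2 KO library. Of 7 lipid genes, the lipid droplet coat gene Plin2 (1.91-fold and 2.18-fold) and the fatty acid carrier Fabp5 (3.14-fold and 1.96-fold) were called higher, and the fatty acid transporter Cd36 was called lower, at 72.4 against 178 CPM and 89.5 against 281 CPM. These shares of 28.6% and 14.3% stand beside the same 7.28% and 11.2% and rest on 7 genes.

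Nuclear-encoded respiratory genes were called lower about as often as all genes. The 27 nuclear-encoded oxidative phosphorylation genes summed to 4431 and 4789 CPM in the hypoxia-high cells of the control runs against 5411 and 5833 CPM, and to 4321 and 4445 CPM in the NF2 KO runs against 6145 and 6257 CPM. Most ratios were modest: of 24 genes that passed the minimum, 23 had ratios below 1 in both libraries, 3 were called lower (Ndufa4, Sdhb and Cycs), and the median log2 ratios were −0.27 and −0.46. The share called lower was 12.5%, near the 11.2% of all genes. Ndufa4, a subunit of cytochrome c oxidase, was 2.04-fold lower in the control and 3.47-fold lower in the NF2 KO library. Its paralogue Ndufa4l2, a HIF target in the list above, was at 30.7 against 2.46 CPM and at 49.9 against 5.37 CPM. Of the 13 mitochondrially encoded genes 6 (46.2%) were called lower, beside the same 11.2% of all genes. Among them were mt-Cytb (1.80-fold and 1.93-fold) and mt-Nd1 (1.95-fold and 1.72-fold). mt-Co1, in contrast, was at 7477 against 6292 CPM and at 7440 against 6507 CPM. The median percentage of mitochondrial UMIs per cell was 2.92 against 3.35 in the control library and 2.5 against 3.4 in the NF2 KO library.

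Of 9 VEGF and angiopoietin genes outside the score that passed the minimum, the ligands Pgf and Angpt2 were called higher and the receptors Kdr and Tek lower. Each pair is 22.2% of the 9 genes, beside 7.28% of all genes called higher and 11.2% called lower. Pgf, the placental growth factor, which binds the receptor Flt1, was at 2195 and 2324 CPM in the hypoxia-high cells of the control runs and at 2412 and 2630 CPM in those of the NF2 KO runs, against 348 to 486 CPM in the others. That is 6.33-fold higher (6.15 to 6.51) in the control and 5.58-fold (5.47 to 5.71) in the NF2 KO library, with no overlap. Angpt2, an angiopoietin that destabilises vessels, was 2.28-fold and 1.88-fold higher. Kdr, the main signalling receptor for VEGF, was 1.76-fold and 2.35-fold lower, and Tek, the angiopoietin receptor, 1.65-fold and 1.67-fold lower. Flt1, a VEGF receptor that largely acts as a decoy, differed between libraries: it was at 1667 against 1047 CPM in the control library and at 524 against 635 CPM in the NF2 KO library, and that difference was not tested.

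Tip cell genes, which mark the leading cells of vessel sprouts, were higher in part. Of 24 genes 8 (33.3%) were called higher, namely Esm1, Cxcr4, Unc5b, Pdgfb, Kcne3, Nid2, Adm and Chst1. Cd34 and Ednrb (8.33%) were called lower. Beside these shares stand 7.28% and 11.2% of all genes. The median log2 ratios were 0.39 and 0.21. Esm1, a secreted proteoglycan of sprouting vessels, was at 2053 and 1884 CPM in the hypoxia-high cells of the control runs and at 2766 and 2407 CPM in those of the NF2 KO runs. In the other kept cells it was at 848 and 556 CPM and at 1496 and 1122 CPM, so hypoxia-high cells lay above the others in every run of either library. The chemokine receptor Cxcr4 was 2.19-fold and 3.29-fold higher. The basement membrane collagens Col4a1 and Col4a2 had ratios between 1.02 and 1.15.

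Of the capillary and venous genes that passed the minimum, 11 of 20 were called lower. Among all genes 11.2% were called lower and 7.28% higher. Of 11 capillary genes 7 were called lower and 1 higher (the chemokine Cxcl12), and of 9 venous genes 4 were called lower (Selp, Lrg1, Icam1 and Aplnr) and none higher. The 14 listed capillary genes summed to 7703 and 7193 CPM in the hypoxia-high cells of the control runs against 8118 and 7211 CPM in the others. In the NF2 KO runs they summed to 5824 and 5850 CPM against 5207 and 8099 CPM, so the sum was lower in 3 of 4 runs and higher in NF2 KO run 1. Fabp4, a fatty acid carrier and the most abundant of them, was at 4039 against 2366 CPM in the control library and at 2981 against 2613 CPM in the NF2 KO library and missed the call, and Rgcc and Sgk1 also had ratios above 1 in both libraries. Aplnr, the apelin receptor, was at 5.11 against 78.2 CPM in the control library and at 1.55 against 46.9 CPM in the NF2 KO library, 15.3-fold (9.77 to 25.5) and 30.2-fold (15.3 to 70.1) lower. Its ligand Apln was at 1532 against 743 CPM in the control library and at 1777 against 1536 CPM in the NF2 KO library, which missed the call. Cd300lg, a capillary surface glycoprotein, was at 4.31 against 65.6 CPM and at 6.99 against 89.98 CPM. Aqp1, a water channel, was at 343 and 347 CPM against 1034 and 1160 CPM in the control runs and at 24.3 and 68.5 CPM against 752 and 780 CPM in the NF2 KO runs. Gpihbp1, which carries lipoprotein lipase across capillary endothelium, was 1.70-fold and 2.99-fold lower, and Plvap, which forms the diaphragms of fenestrae, 1.64-fold and 1.88-fold lower. Lrg1 was at 52.0 against 265 CPM and at 77.2 against 537 CPM. Of 3 arterial genes that passed the minimum, Unc5b was called higher and Fbln5 lower. The lists overlap: Kdr is also an endothelial and a VEGF receptor gene, and Adm also a tip cell gene.

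Interferon response genes were lower in the hypoxia-high cells. The 15 genes summed to 1563 and 1307 CPM in the control runs against 2598 and 3195 CPM in the others, and to 1570 and 1635 CPM in the NF2 KO runs against 2784 and 3440 CPM, with no overlap of runs. Of 14 genes that passed the minimum 12 (85.7%) were called lower and none higher, beside 11.2% and 7.28% of all genes. The median log2 ratios were −1.15 and −0.79. Gbp2, a guanylate-binding protein, was 3.11-fold and 2.80-fold lower, the ubiquitin-like Isg15 2.22-fold and 1.91-fold, and Bst2, which tethers virus particles, 1.69-fold and 1.61-fold. The chemokine Cxcl10 was at 78.1 against 297 CPM in the control library and at 32.4 against 407 CPM in the NF2 KO library. Rsad2 had ratios of 0.79 and 0.97 and missed the call. Cells above 2000 CPM for the whole list made up 19.4% of the hypoxia-high and 47.4% of the other control cells, and 22.8% and 51.2% in the NF2 KO library.

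Cell cycle genes were lower, and by different amounts in the libraries. The 20 genes of the G2/M list, which act in chromosome condensation and mitosis, summed to 417 and 738 CPM in the hypoxia-high cells of the control runs against 934 and 1075 CPM in the others. In the NF2 KO runs they summed to 103 and 79.7 CPM against 983 and 950 CPM. Of 10 genes that passed the minimum 9 (90%) were called lower, beside 11.2% of all genes. The exception was Top2a, whose control ratio was 0.68. The median log2 ratio of the 10 genes was −0.75 in the control and −3.42 in the NF2 KO library. Mki67, a protein of the mitotic chromosome surface, was at 35.5 and 103 CPM in the hypoxia-high cells of the control runs, at 1.247 and 7.61 CPM in those of the NF2 KO runs, and between 92.8 and 112 CPM in the other kept cells of all runs. Birc5, the survivin gene, was 2.30-fold lower in the control and 21.7-fold lower in the NF2 KO library.

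Most G2/M UMIs of the hypoxia-high control cells came from few cells. Cells above 2000 CPM for the list numbered 11 of 155 hypoxia-high control cells (7.10%, 3.60 to 12.3) and 1 of 267 hypoxia-high NF2 KO cells (0.375%, 0.009 to 2.07). The other kept cells had 154 (12.3%) and 282 (11.05%). Those 11 control cells held 1896 of the 2172 G2/M UMIs of their group (87.3%), while the 1 NF2 KO cell held 47 of 448 (10.5%). Among the other kept cells, those above 2000 CPM held a similar share, 83.3% in the control and 81.5% in the NF2 KO library. In the typical cell the list was near the level of 1 UMI, with medians of 53.0 and 43.7 CPM in hypoxia-high cells and 79.0 and 96.3 CPM in the others. After thinning each cell to 5000 UMIs the sums were 495 against 790 CPM in the control library and 81.2 against 732 CPM in the NF2 KO library. The contrast between libraries depends on which cells are selected: the median log2 ratio of the control library was −2.06 for the top 5% and −1.72 when the score was taken from 5000 UMIs per cell. Of 7 S phase genes 4 were called lower, beside 11.2% of all genes, among them the thymidylate synthase Tyms (2.28-fold and 7.43-fold).

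**Figure D3:**
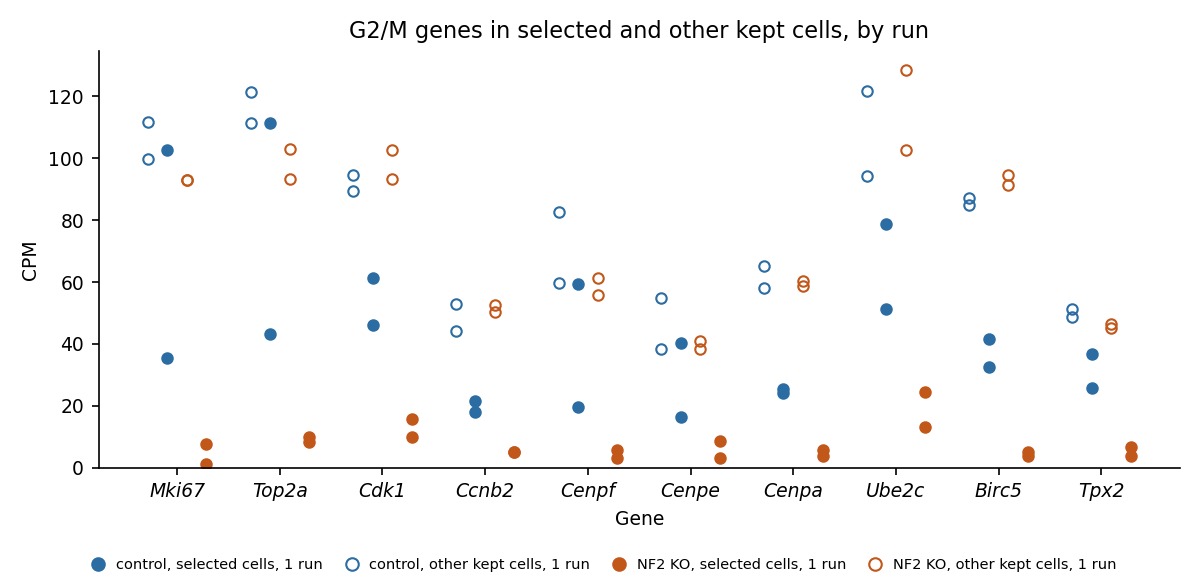
CPM (vertical axis) of the 10 G2/M genes that passed the minimum, with 1 point per run. Filled points are hypoxia-high (selected) cells and open points other kept cells; the filled NF2 KO points lie near 0 for every gene, as for Mki67 (1.247 and 7.61 CPM), while the filled control points spread between these and the open points.

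The lists were also followed over the whole range of the score by dividing the kept cells of both libraries, ranked by score, into 10 equal bins. In the control library the HIF-induced list was at 2383 CPM in the lowest bin, 5673 CPM in the ninth and 9958 CPM in the highest, and in the NF2 KO library at 2741, 6814 and 10822 CPM. Adm went from 151 to 1823 CPM and from 275 to 2157 CPM, and Pgf from 148 to 2262 CPM and from 191 to 2562 CPM. Oxidative phosphorylation genes were between 5427 and 5977 CPM in the lower 9 bins of the control library and at 4618 CPM in the highest. In the NF2 KO library they were at 6316 CPM in the lowest bin and 6643 CPM in the fourth. From there they fell in each bin, to 5379 CPM in the ninth and 4407 CPM in the highest. G2/M genes were at 1134 CPM in the lowest, 731 in the ninth and 585 in the highest bin of the control library, and at 1078, 357 and 86.9 CPM in the NF2 KO library. Median depth was lower in the lowest bin (13597 and 13358.5 UMIs) than in the highest (21090 and 17948 UMIs), and its part in these values was not tested.

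**Figure D4:**
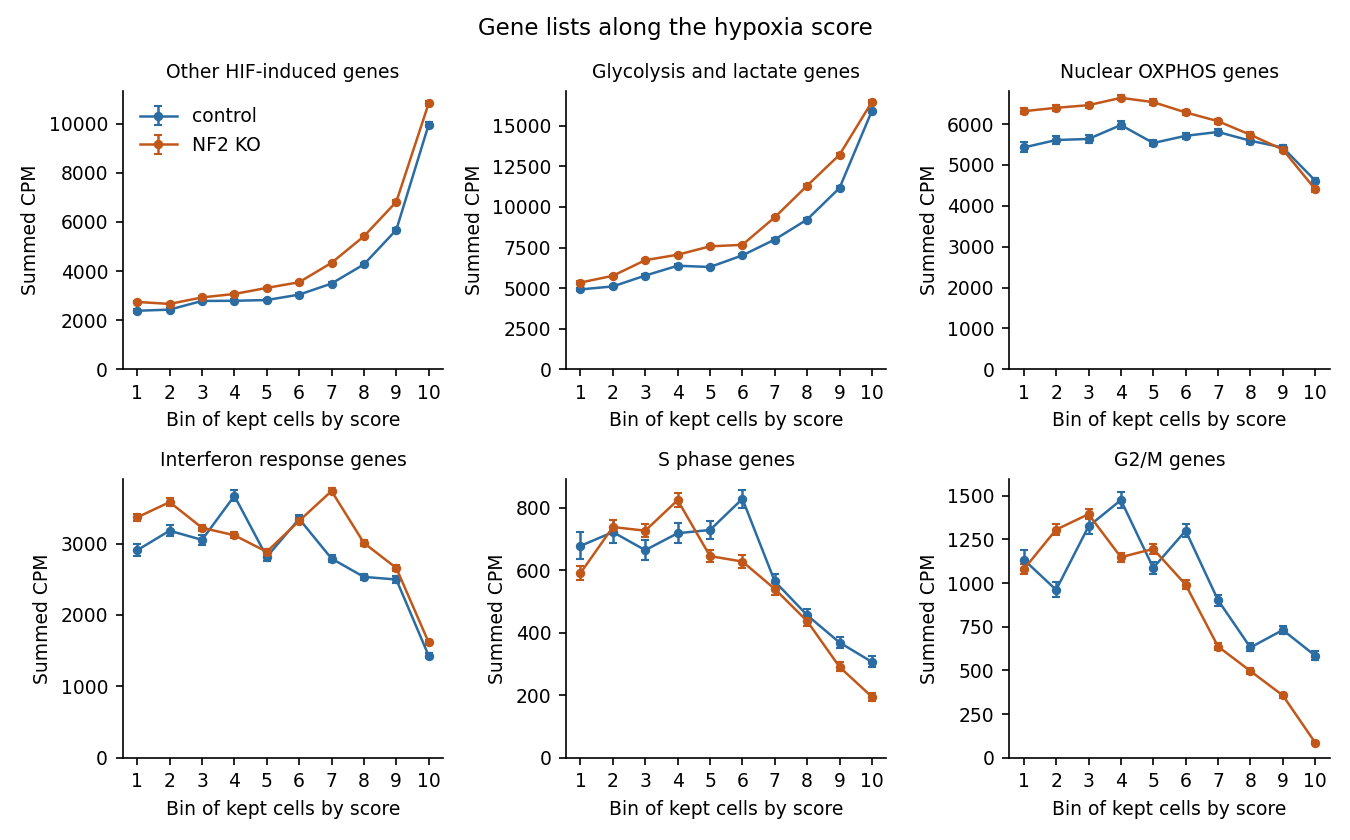
Summed CPM of 6 gene lists (vertical axes, from 0) in 10 equal bins of kept cells ranked by score (horizontal axes), per library, with exact 95% Poisson intervals. HIF-induced and glycolysis genes are highest and interferon, S phase and G2/M genes lowest in the highest bin, the hypoxia-high cells; G2/M genes end at 585 CPM in the control library and 86.9 CPM in the NF2 KO library.

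Target genes of YAP and TAZ, the coactivators that the Hippo pathway restrains, were higher in part. Of 13 genes 5 (38.5%) were called higher (Thbs1, Ctgf, Ankrd1, Gadd45a and Tgfb2) and none lower, beside 7.28% and 11.2% of all genes. The median log2 ratios were 0.65 and 0.47. Ankrd1 was at 96.3 and 81.4 CPM in the hypoxia-high cells of the control runs against 2.95 and 2.90 CPM in the others, and at 385 and 397 CPM against 74.7 and 45.6 CPM in the NF2 KO runs. Ctgf, a secreted matrix-associated protein, was at 1199 against 223 CPM in the control (5.36-fold) and at 1298 against 512 CPM in the NF2 KO library (2.53-fold). Thbs1, thrombospondin, was 3.33-fold and 2.31-fold higher. Of 7 Notch genes Rbpj was called higher and Nrarp lower, of 13 immediate early genes Ier3 was called higher and Ier2 and Nr4a1 lower, and of 4 cholesterol genes Insig1 was called higher and Hmgcs1 and Fdps lower. The shares called higher and lower were 14.3% and 14.3% for Notch and 7.69% and 15.4% for immediate early genes. For the 4 cholesterol genes they were 25% and 50%. Beside them stand 7.28% and 11.2% of all genes, and nothing is read from counts this small.

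The rule for named genes took the 12 with the highest smaller ratio of the 2 libraries and the 12 with the lowest larger one. The 12 highest were Selenbp1, Rora, Tiparp, Zfp395, Ankrd1, Mt1, Ak4, Pgf, Plod2, Fhl2, Mxi1 and Fbxo32, of which 5 stand in the HIF list and 2 more in the lists of VEGF ligands or YAP targets. Of those in no list, Tiparp, an ADP-ribosyltransferase, was at 235 against 30.3 CPM (7.75-fold) and 258 against 30.3 CPM (8.49-fold). Mt1, a metallothionein that binds zinc, was 6.81-fold and 5.94-fold higher, Fhl2 5.45-fold and 7.0-fold, and the ubiquitin ligase subunit Fbxo32 6.34-fold and 4.77-fold. The 12 lowest were Aplnr, Cd300lg, Car4, Fbln2, Serpina3g, Csf2rb, Csf2rb2, Grrp1, Rbp7, Tnfsf10, Lrg1 and Slfn9. Car4, a capillary carbonic anhydrase, was at 3.94 and 0.515 CPM against 26.3 and 57.4 CPM in the control runs and at 8.11 and 18.0 CPM against 75 and 147 CPM in the NF2 KO runs. Its log2 ratio in the control library lay between −7.30 and −1.03 over the alternative settings. Csf2rb, the shared receptor chain for several cytokines, was 6.14-fold and 10.9-fold lower. Csf2rb and Csf2rb2 are near-identical neighbours, and Serpina3g and Slfn9 belong to families of similar genes, so reads may be split among copies.

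Within the hypoxia-high cells, the library labelled NF2 KO was compared with the control library. This contrast was not used to choose the cells. A gene was called where the ratio was at least 1.5-fold, the 95% interval excluded 1, the mean CPM of both libraries reached 20 and both NF2 KO runs lay on the same side of both control runs. This mean can be reached through either library alone. Of 5471 genes 212 (3.87%) were called higher and 488 (8.92%) lower in the hypoxia-high cells, and of 5845 genes 161 (2.75%) and 314 (5.37%) in the other kept cells. The median log2 ratio of all genes was −0.09 and −0.03.

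Most genes of the hypoxia lists were not called between the libraries, as was the case for most of all genes. Of the 7 genes of the score none was called, with ratios of NF2 KO to control between 0.78 (Ero1l) and 1.42 (Vegfa). Of 36 HIF-induced genes 4 were called higher and 2 lower, beside 3.87% and 8.92% of all genes, and nothing is read from counts this small. The median log2 ratio of the 36 genes was −0.06. Of 14 glycolysis genes none was called, with a median of −0.03. Hmox1 (1.70-fold), Cited2 (1.52-fold) and Ndufa4l2 (1.63-fold) were among those called higher. Stc1, a secreted glycoprotein hormone, was at 331 and 322 CPM against 147 and 116 CPM, 2.60-fold lower, and Car9 2.07-fold lower.

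Tip cell and VEGF receptor genes were lower in the NF2 KO library. Of 24 tip cell genes 13 were called lower and none higher, beside 8.92% and 3.87% of all genes. Their median log2 ratio was −0.62 in the hypoxia-high cells and −0.60 in the other kept cells. Igfbp3, an IGF-binding protein, was at 8958 and 7441 CPM in the control runs and at 1968 and 1772 CPM in the NF2 KO runs, 4.46-fold lower (4.35 to 4.56), and 2.85-fold lower in the other kept cells. The laminin chain Lamb1 was 2.5-fold lower, the activin subunit Inhbb 2.42-fold and the netrin receptor Unc5b 2.46-fold. Flt1 was at 1990 and 1371 CPM in the control runs and at 541 and 516 CPM in the NF2 KO runs, 3.18-fold lower (3.04 to 3.33), against 1.65-fold in the other kept cells. The VEGF co-receptor Nrp1 was 2.82-fold lower and Kdr 1.94-fold lower, Flt4 was also called lower, and the ligand Vegfb was called higher (1.62-fold). Angpt2, Pgf, Esm1 and Adm had ratios between 1.13 and 1.32 and were not called.

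Of the 16 endothelial markers 6 were called lower and none higher. Beside this count and the Notch and YAP counts below stand 8.92% of all genes called lower and 3.87% called higher. Cldn5, a tight junction claudin of endothelium, was at 806 and 647 CPM in the control runs and at 66.7 and 116 CPM in the NF2 KO runs, 7.19-fold lower (6.54 to 7.92), and 3.72-fold lower in the other kept cells. Cldn4, the epithelial claudin named above, was at 19.7 and 22.2 CPM and at 59.9 and 68.5 CPM. Of 8 Notch genes 4 were called lower, among them the target Nrarp (1.96-fold) and Hes1 (1.61-fold). Of 14 YAP and TAZ targets 8 were called higher and Nt5e lower, with a median log2 ratio of 0.69, and 0.92 in the other kept cells. Ankrd1 was 4.44-fold higher (3.95 to 5.01) in the hypoxia-high cells and 19.2-fold in the other kept cells. Ctgf, at 1207 and 1192 CPM in the control runs and 1207 and 1339 CPM in the NF2 KO runs, had a ratio of 1.08 in the hypoxia-high cells and was 2.29-fold higher in the other kept cells. The chemokine Cxcl12 was 3.32-fold higher, at 331 and 311 CPM and at 1026 and 1085 CPM.

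G2/M genes were called lower in the NF2 KO library for all 6 that passed the minimum, beside 8.92% of all genes. Their median log2 ratio was −3.14. A gene low in the NF2 KO library can pass through the control library alone, so this count and median depend on the minimum. Without a minimum, all 20 genes of the list summed to 585 CPM in hypoxia-high control cells and to 86.9 CPM in hypoxia-high NF2 KO cells. Top2a, a topoisomerase of dividing cells, was at 43.4 and 111 CPM in the control runs and at 9.98 and 8.45 CPM in the NF2 KO runs, 8.83-fold lower, against 1.17-fold in the other kept cells. The median was −1.37 for the top 5% of cells, −1.54 for the top 20% and −1.43 with the score from 5000 UMIs per cell, and −2.31 without control run 2. The control values rest largely on the 11 cells described above, which held 87.3% of the G2/M UMIs of their group. Among the other control cells, those above 2000 CPM for the list held 83.3%.

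By the rule for named genes, the 10 highest ratios were those of Ank3, F2rl1, Ntn4, Pcdh7, Dnase1l3, Zfp462, Ankrd1, Rasa4, Fam198b and Ahnak2. Ank3, a cytoskeletal adaptor, was at 0 and 2.06 CPM in the control runs and at 34.3 and 44.2 CPM in the NF2 KO runs, and F2rl1, a protease-activated receptor, at 13.5 and 6.19 CPM and at 121 and 120 CPM. Both thus reached the minimum through the NF2 KO library alone. F2rl1 was 12.4-fold higher (8.87 to 17.9) in the hypoxia-high cells and 25.2-fold in the other kept cells. Ntn4, a netrin of basement membranes, was 8.25-fold and 13.7-fold higher. The 10 lowest were Hist1h1b, Peg3, Gkn1, Ildr2, Mki67, Pclaf, Prc1, Cenpf, Tmem255a and Kcnj8, of which Hist1h1b, Mki67, Pclaf, Prc1 and Cenpf are known from dividing cells. Peg3, an imprinted zinc finger gene, was at 113 and 66.0 CPM in the control runs and at 4.36 and 2.82 CPM in the NF2 KO runs, 26.8-fold lower (16.5 to 46.5), and 5.55-fold lower in the other kept cells. Kcnj8, a potassium channel subunit, was 9.36-fold lower and 7.17-fold lower. Over the alternative settings the log2 ratio of Hist1h1b lay between −5.65 and −0.50 and that of Mki67 between −5.82 and −1.58.

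**Figure D5:**
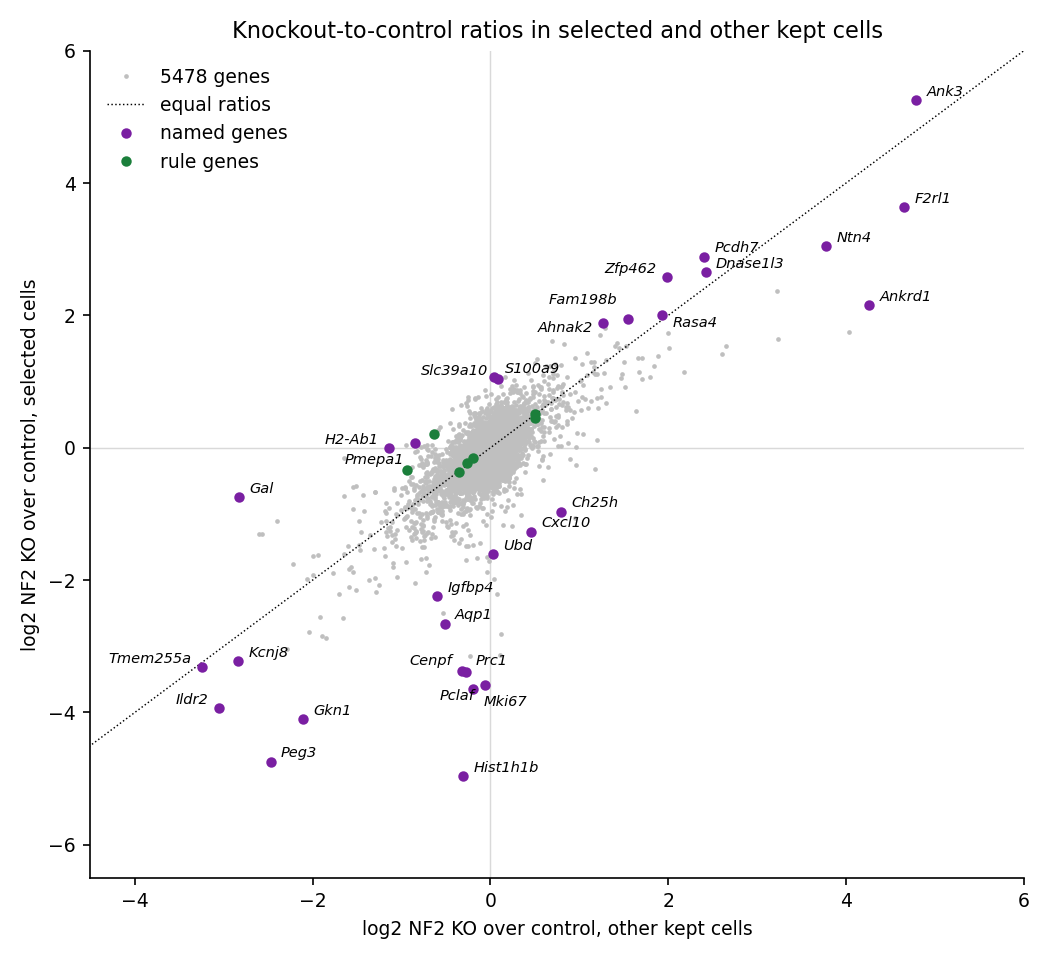
Log2 ratio of NF2 KO to control CPM for 5478 genes, in other kept cells (horizontal axis) and in hypoxia-high (selected) cells (vertical axis). Purple points are genes named by rule, green points the 7 genes of the score, and the dotted line marks equal ratios; Ank3, F2rl1 and Ankrd1 are high in both groups of cells, and Hist1h1b and Mki67 lie low in the hypoxia-high cells with ratios near 0 on the log2 scale in the others.

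A last comparison asked for which genes the NF2 KO to control ratio differed most between hypoxia-high and other kept cells, among 4605 genes with at least 20 CPM in each of the 4 sums, leaving out the gene groups named in the processing notes. With 1 library per group this difference was not tested. The 5 highest were Gal, H2-Ab1, S100a9, Slc39a10 and Pmepa1. Gal, the neuropeptide galanin, was at 165 and 278 CPM in hypoxia-high and at 156 and 319 CPM in other cells of the control runs. In the NF2 KO runs it was at 107 and 146 CPM in hypoxia-high and at 47.5 and 26.8 CPM in other cells. The log2 of its ratio relative to the others was 2.08, and lay between 0.75 and 2.56 over the alternative settings. Over the same settings S100a9 lay between 0.008 and 1.79 and Pmepa1 between 0.35 and 1.01. S100a9 is a neutrophil gene, and the 8 neutrophil markers summed to 36.6 and 56.7 CPM in the hypoxia-high cells of the control runs and to 66.7 and 99.2 CPM in those of the NF2 KO runs. Of these markers S100a8 and S100a9 passed the minimum and both were called higher in the NF2 KO library, while Csf3r, Cxcr2 and Mmp9 were at 0 in the hypoxia-high control cells. The part of neutrophil RNA in this difference was not tested. The 5 lowest were Aqp1, Ch25h, Cxcl10, Ubd and Igfbp4. Igfbp4, an IGF-binding protein, was at 163 and 187 CPM in hypoxia-high and 174 and 213 CPM in other cells of the control runs, and at 44.9 and 33.8 CPM and 157 and 112 CPM in the NF2 KO runs. The relative log2 ratio of Cxcl10 was −1.73 and lay between −2.15 and −0.27 over the settings. Aqp1 was 6.31-fold lower in the NF2 KO library in hypoxia-high cells and 1.43-fold lower in the others. Ubd, a ubiquitin-like modifier induced by cytokines, differed between the control runs, with 75.5 and 262 CPM in hypoxia-high cells, and was at 86.7 and 43.4 CPM in those of the NF2 KO runs. Its log2 ratio in hypoxia-high cells relative to the others was −1.63, and 0.014 when the score was taken from 5000 UMIs per cell, so the difference was nearly absent under that setting.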

How the data were processed

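Per the labels' protocols, the sorted cells were run on the 10x Genomics droplet system with the 3′ v3.1 kit. Per the submitters' processing notes, the mm10 build was used with Cell Ranger 3.0.0 and with Seurat 3.1.1. Their settings, and any removal of doublets, are not given in the sources used here. The authors deposited 1 table per library of natural log values, for 19831 genes. A gene's share of the UMIs of its cell had been multiplied by 10000, increased by 1 and logged, and 100% of the values gave whole UMI counts within 0.01 UMI. The control library held 34649992 UMIs and the NF2 KO library 58907098.

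The recovered counts were summed over hypoxia-high and over other kept cells of each library and run and expressed as CPM. The hypoxia-high cells held 3714993 UMIs in the control and 5152800 in the NF2 KO library. Exact Poisson intervals were given for CPM, exact conditional intervals for ratios and Clopper-Pearson intervals for shares, all at 95%. With 1 library per group no p-value was computed. Genes were called at 1.5-fold, an interval that excluded 1 and a mean CPM of at least 20. Named genes left out the 7 genes of the score, mitochondrially encoded, ribosomal protein and predicted genes. They were the 12 highest and 12 lowest by the less extreme of the 2 libraries, the 10 highest and 10 lowest called ratios of NF2 KO to control, the 5 highest and 5 lowest ratios of those ratios, and up to 6 genes per list by mean CPM. Not every list member that is counted is reported by name here. Other list members named in the text were chosen for their role after their values were seen. The cells, lists and rules were chosen with earlier results of these data known.

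Doublet scores came from 2 simulated doublets per cell, 2000 variable genes and 30 principal components, and no cell was removed by them. Gene positions are from GENCODE M21 and promoters from RefSeq, both on GRCm38. Alternatives changed the share of cells selected, the score, the filters on cells and genes, the scaling, the fold and the runs. Python 3.11.15 was used with numpy 2.4.6, scipy 1.17.1, pandas 2.3.3, scikit-learn 1.9.0 and matplotlib 3.10.9.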

Additional observations from a re-analysis of the deposited data

Results flagged for a closer look

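Ch25h, which encodes cholesterol 25-hydroxylase, an enzyme that makes an oxysterol, was the 1 gene that met the fold, interval and CPM limits in opposite directions in the libraries. In the control library the hypoxia-high cells were at 76.4 CPM and the other kept cells at 49.4 CPM, a ratio of 1.55 (95% interval 1.36 to 1.76). In the NF2 KO library they were at 39.2 and 85.4 CPM, a ratio of 0.459 (0.397 to 0.529). By run the hypoxia-high cells were at 92.4 and 61.9 CPM in the control and at 33.7 and 41.7 CPM in the NF2 KO library, and the other kept cells at 46.0 and 52.4 CPM and at 76.6 and 90.2 CPM. Each run moved in the direction of its library. With 1 library per group the difference was not tested.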

How the results depend on the processing

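Of 165 counts and shares recomputed under the alternatives 148 stayed within their limits, as did 1400 of 1675 list medians and 1638 of 1947 values of named genes. With the top 5% of cells, 5.77% of control and 4.61% of NF2 KO kept cells were selected and 924 genes were lower in them than in other kept cells. With the top 20%, the shares were 23.6% and 18.2%, with 255 genes higher and 251 lower. A 2-fold call gave 140 genes higher and 148 lower, and 68 higher and 162 lower between NF2 KO and control. A mean CPM of at least 10 gave 919 genes lower in hypoxia-high cells and 368 higher in NF2 KO. No minimum gave 713 higher and 1505 lower, and 691 and 1105 between the libraries. Median-of-ratios scaling gave 498 higher and 428 lower in place of 395 and 610, and 290 and 357 in place of 212 and 488, so that the split turned in the former. Leaving out 1 run each gave 371 to 391 genes higher and 551 to 630 lower in hypoxia-high cells, and 230 to 273 higher and 513 to 554 lower in NF2 KO.

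Some list medians changed sign on the log2 scale. With the top 20%, the arterial list of the NF2 KO library came to −0.16 and the neutrophil list of the control library to 0.61. The interferon list between libraries was −0.11 without control run 2 and 0.40 without control run 1, the lipid list of the NF2 KO library −0.15 without NF2 KO run 1 and 0.52 without run 2, and the cholesterol list between libraries 0.21 without NF2 KO run 2 and −0.36 without run 1. The relative ratio of Ubd was 0.014 with the score from 5000 UMIs per cell. The cause was not tested. The number of HIF-induced genes called higher was between 23 and 35 over the settings. No paired analysis was possible because each group has 1 library. Depth limits the genes: those with few UMIs in 155 or 267 cells, such as Aplnr or Ank3, have wide intervals.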
